A study of Mus musculus with 6 samples.

Results

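The scavenger and repair genes of resident macrophages described here are 9 of the 31276 genes in the deposited matrices: Stab1, Mrc1, Cd163, Folr2, Lyve1, F13a1, Gas6, Pf4 and Cbr2. They were found by symbol, as a list of scavenging and repair genes that was set with earlier results of these data known, and each of the 9 had UMIs (unique molecular identifiers, one per captured transcript) in macrophages. A macrophage was any kept cell barcode with at least 10 UMIs of C1qa, C1qb and C1qc together, which code for the chains of complement C1q and are made by tissue macrophages. This gate took 9876 of 23578 kept barcodes.

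The cells came from obstructed kidneys of 6 C57BL/6 mice. One ureter of each mouse had been closed surgically (unilateral ureteral obstruction, a model of kidney fibrosis) 7 days before the kidney was taken. SH045 was given to 3 mice (n = 3), a compound that the series title ties to inhibition of the calcium-permeable channel TRPC6, and Vehicle to the other 3 (n = 3). Every kidney in both groups was obstructed, the labels give neither dose nor sex, and the contralateral kidneys and spatial samples were not analysed here. The comparison asks how these 9 transcripts differ in obstructed kidneys between SH045 and Vehicle.

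Resident macrophages live in the kidney between the tubules and along vessels, and clear dying cells, modified proteins and matrix fragments. Uptake begins at scavenger receptors on the surface, while secreted factors mark dying cells for uptake, stabilise fibrin or bind to matrix. After obstruction, blood monocytes enter the kidney and become macrophages as well, so that resident and monocyte-derived cells share the tissue.

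The 6 libraries, each from 1 mouse, held 21186872 to 32256602 UMIs, and macrophages per library numbered 1091, 1408 and 1841 with SH045 and 1819, 1634 and 2083 with Vehicle. Macrophages made up 39.3 ± 10.1% of kept barcodes with SH045 and 44.2 ± 6.02% with Vehicle (SD, n = 3 each, two-sided exact permutation p = 0.6, where 3 against 3 cannot go below 0.1). The median macrophage had 3330 ± 78.7 UMIs against 3636 ± 650 (exact permutation p = 0.4). Barcodes with over 50% mitochondrial UMIs, which were left out, amounted to 12.4 ± 3.56% in SH045 libraries and 4.34 ± 0.873% in Vehicle libraries, without overlap. SH045 libraries 1 and 2 shared 49 kept barcodes, against 5 to 17 in the 14 other pairs of libraries. The shared barcodes of that pair were alike in profile (median correlation 0.718, against 0.513 for other barcodes), and 2 were macrophages in both. Genes that the gate did not use fitted the name: Adgre1 was found in 73.2% of macrophages and 3.39% of other kept barcodes, Fcgr1 in 63.9% and 3.68%, and Csf1r in 87.6% and 12.6%.

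The promoters of 4 genes are shown, 3 that rose with SH045 and Pf4, which did not pass the test, because each holds the letters of a motif of myeloid cells close to the start. A pair of motifs was searched on both strands of the 250 bases before each RefSeq start: the core bound by PU.1, a factor that all macrophages need (GAGGAA, which reads TTCCTC on the opposite strand), and the recognition core of MAF factors (TGCTGA, which reads TCAGCA on the opposite strand). The letters of the 2 motifs do not overlap in the stretches shown. Each stretch is the 110 bases before the RefSeq start in GRCm38.p6. It is written 5′ to 3′ on the strand of the gene, with motif letters in capitals. The RefSeq start of Mrc1 lies inside the gene span given below for it, so the last bases of its stretch fall within that span.
Stab1, chr14:31168642-31168751, minus strand: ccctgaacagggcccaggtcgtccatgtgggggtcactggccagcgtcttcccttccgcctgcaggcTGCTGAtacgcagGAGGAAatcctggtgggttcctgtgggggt
Mrc1, chr2:14229304-14229413, plus strand: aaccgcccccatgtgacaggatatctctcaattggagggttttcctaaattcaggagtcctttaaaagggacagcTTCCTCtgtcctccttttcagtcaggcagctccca
F13a1, chr13:37050245-37050354, minus strand: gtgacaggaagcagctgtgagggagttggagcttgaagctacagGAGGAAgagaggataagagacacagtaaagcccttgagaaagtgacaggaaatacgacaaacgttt
Pf4, chr5:90772325-90772434, plus strand: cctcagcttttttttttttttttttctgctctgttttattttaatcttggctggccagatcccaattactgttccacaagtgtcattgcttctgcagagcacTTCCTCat
Of the 8 member genes with a RefSeq promoter entry, 5 held GAGGAA (Stab1, Mrc1, F13a1, Pf4 and Cbr2) and 2 held TGCTGA (Stab1 and Folr2). Some genes have more than 1 window, and of the 10 windows of these genes 5 held the first and 3 the second. Among all 32851 mouse promoter windows of 250 bases, 23.3% held the first and 16.1% the second. These matches are letters in a window, not shown binding sites.

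In macrophages, Stab1 and F13a1 rose with SH045 by more than 2-fold, Mrc1 and Gas6 rose by less, and 0 of the 9 genes fell. Cd163 and Lyve1 also passed the test, 6 of the 9 in all, but they met the filter on low counts (1.47 CPM in at least 3 libraries) only through the SH045 libraries, so their calls are not read as support. Pf4, Folr2 and Cbr2 did not pass the test. The UMIs of each library's macrophages were summed and compared with edgeR's quasi-likelihood test over 12274 genes, with Benjamini-Hochberg adjustment and a limit of 0.05. By that test 5.08% of all genes were called higher with SH045 and 4.55% lower. Levels below are CPM, a gene's UMIs scaled to the same total of UMIs for the macrophages of every library, and are not compared between genes. Each p-value measures the spread between mice, with 3 mice a group.

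Stab1 codes for stabilin-1, a receptor that takes up modified lipoproteins, matrix protein SPARC and dying cells. The gene (ENSMUSG00000042286) lies at chr14:31139013-31168641 on the minus strand in mm10. Its level was 355, 257 and 374 CPM in SH045 libraries 1 to 3 and 100.5, 111 and 137 CPM in Vehicle libraries 1 to 3. All SH045 libraries lay above all Vehicle libraries, which 28.2% of all tested genes also showed. The log2 fold change was 1.33 ± 0.15 (SE, edgeR adjusted p = 0.00111). Stab1 was called in all 21 alternative settings, with log2 fold changes from 1.01 to 1.50. In 1 of them SH045 2 stood alone against Vehicle and was assumed to vary like the Vehicle libraries, so that setting carries little weight.

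Mrc1 codes for the mannose receptor CD206, which clears glycoproteins and collagen fragments (ENSMUSG00000026712, chr2:14229392-14332057, plus strand). Its level was 985, 762 and 991 CPM with SH045 and 476, 512 and 563 CPM with Vehicle, without overlap. The log2 fold change was 0.65 ± 0.13 (edgeR adjusted p = 0.0132). The call ended without SH045 3, Vehicle 1 or Vehicle 2, and when a trend on transcript length was removed (edgeR adjusted p = 0.0524, in a range from 0.000101 to 0.373 over its alternatives). That trend ran over the whole table: fold changes rose with the length of the longest transcript across 12268 genes (Spearman correlation 0.466, across genes, which are not independent), from a median of -0.22 in the 10% of genes with the shortest transcripts to 0.36 in the 10% with the longest.

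Cd163 codes for the receptor of haptoglobin-bound haemoglobin (ENSMUSG00000008845, chr6:124304656-124330527, plus strand). Its level was 5.26, 12.6 and 6.77 CPM with SH045, from 22, 68 and 49 UMIs, and 1.74, 1.31 and 2.28 CPM with Vehicle, from 11, 11 and 23 UMIs. SH045 library 2 was the highest and the groups did not overlap. Vehicle 2 lay under the filter on low counts, which Cd163 met through the SH045 libraries. The log2 fold change was 2.05 ± 0.39 (edgeR adjusted p = 0.012), and the call ended without Vehicle 1 (adjusted p = 0.0589) or Vehicle 2 (adjusted p = 0.0563).

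Lyve1 codes for a hyaluronan receptor of lymphatic endothelium and of macrophages along vessels (ENSMUSG00000030787, chr7:110850607-110863239, minus strand). Macrophages held 19, 19 and 12 Lyve1 UMIs with SH045 and 0, 0 and 1 with Vehicle. A count of 0 allows up to 0.473 CPM in Vehicle 1 and 0.359 CPM in Vehicle 2 (3 counts per library), against 4.55, 3.52 and 1.66 CPM with SH045. The ratio of the pooled levels was 73.8, with an exact 95% counting interval from 12.6 to 2971 that covers counting error only. The gene entered the edgeR test (adjusted p = 0.00638) only because of the SH045 libraries, so that p is not read as support. In SH045 library 1, 18 of the 19 UMIs came from 1 barcode, which had 98 C1q UMIs and 0 UMIs of the lymphatic and endothelial markers. Without that barcode the ratio was 47.2 (interval 7.89 to 1922).

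Folr2 codes for folate receptor beta (ENSMUSG00000032725, chr7:101839988-101857194, minus strand). Its level was 5.98, 25.4 and 5.11 CPM with SH045 and 3.31, 2.75 and 3.66 CPM with Vehicle. SH045 library 2 stood apart, and 15 of its cells held 73.0% of its Folr2 UMIs. The log2 fold change was 1.76 ± 0.79 (edgeR adjusted p = 0.232), and 0.55 without SH045 2 (adjusted p = 0.298).

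F13a1 codes for the A subunit of coagulation factor XIII, the transglutaminase that crosslinks fibrin (ENSMUSG00000039109, chr13:36867178-37050244, minus strand). Its level was 55.3, 59.7 and 63.6 CPM with SH045 and 24.9, 22.3 and 18.6 CPM with Vehicle. Each group was tight and they lay well apart. The log2 fold change was 1.29 ± 0.15 (edgeR adjusted p = 0.00111).

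Gas6 codes for the bridging ligand that links phosphatidylserine on dying cells to the receptors Tyro3, Axl and Mertk (ENSMUSG00000031451, chr8:13465374-13494490, minus strand). Its level was 147, 122 and 155 CPM with SH045 and 77.8, 77.8 and 67.7 CPM with Vehicle. The groups did not overlap, and the log2 fold change was 0.75 ± 0.12 (edgeR adjusted p = 0.0078).

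Pf4 codes for platelet factor 4 (CXCL4), a chemokine of platelet granules that resident macrophages also make (ENSMUSG00000029373, chr5:90772435-90773383, plus strand). Its level was 670, 571 and 815 CPM with SH045 and 627, 529 and 469 CPM with Vehicle. The groups overlapped, and the log2 fold change was 0.17 ± 0.16 (edgeR adjusted p = 0.512). In macrophages the 7 megakaryocyte and platelet markers summed to 10.2 to 23.9 CPM with SH045 and 7.73 to 11.8 CPM with Vehicle, with Treml1 at 0 throughout. Their part in the Pf4 level was not tested.

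Cbr2 codes for a carbonyl reductase (ENSMUSG00000025150, chr11:120729489-120732114, minus strand). Its level was 30.4, 58.0 and 30.3 CPM with SH045 and 18.6, 11.4 and 11.2 CPM with Vehicle, without overlap. The log2 fold change was 1.40 ± 0.38 (edgeR adjusted p = 0.0754). The adjusted p was 0.0416 with the length trend removed, and the gene was also called without SH045 2, the highest library. Cbr2 has a short transcript, 1110 bases, where Stab1 has 7999.

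**Figure D1:**
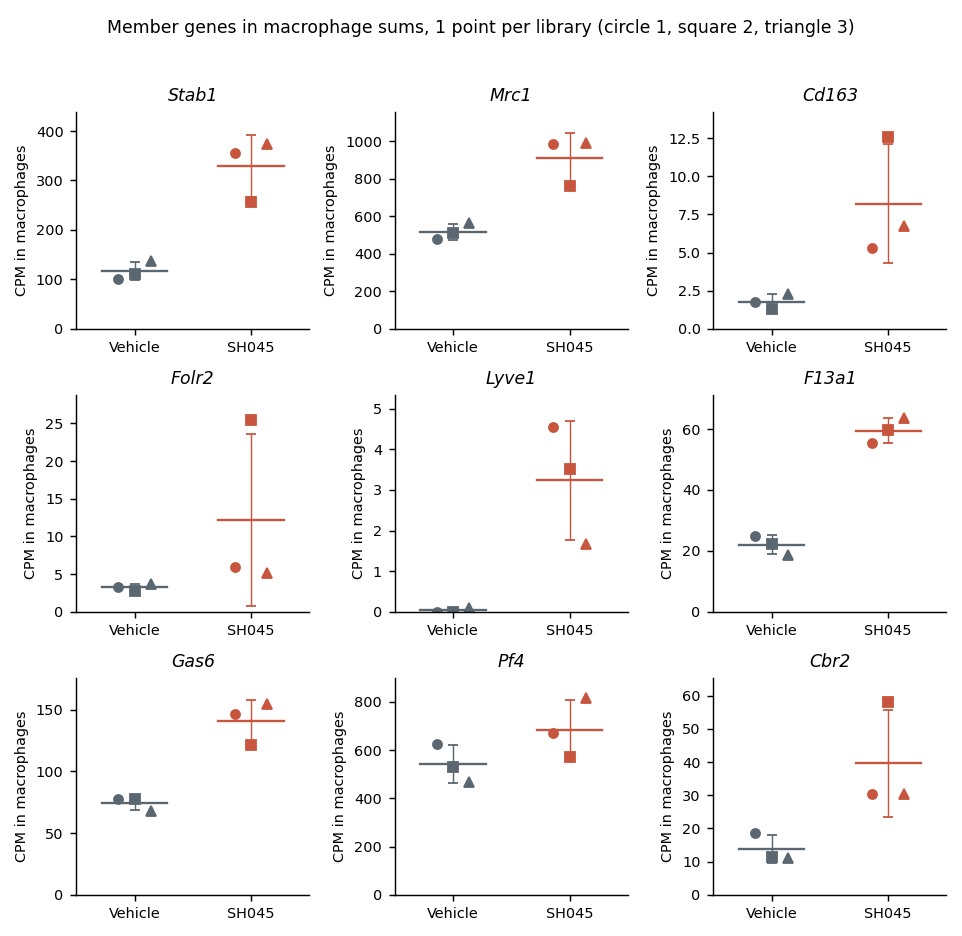
CPM of the 9 genes in the macrophages of each library (y axis, from 0; 1 panel per gene), with Vehicle on the left and SH045 on the right; lines are means and bars are SD (n = 3). All SH045 points lie above all Vehicle points in 8 of the 9 panels, as for 28.2% of all 12274 genes tested, and Pf4 overlaps.

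The scaling and the markers of other cells moved with the groups. Plain CPM put the median of all genes 0.17 higher with SH045 on the log2 scale, while edgeR's TMM scaling, used for the fold changes above, put it at 0.01. All 9 genes were positive under both, and Pf4 was the lowest under both at 0.33 and 0.17. In macrophage sums the 7 neutrophil markers came to 127 to 554 CPM with SH045 and 83.3 to 122 with Vehicle, the 8 endothelial markers to 33.6 to 94.5 and 16.6 to 22.2, and the 7 NK markers to 24.7 to 87.1 and 12.6 to 19.9. The 7 B cell markers also separated, at 83.1 to 103 and 61.5 to 83.0 CPM, and 0 markers of these 4 lists were absent. Their part in the results was not tested beyond the following fit. That fit left out macrophages that held at least 3 markers of a lineage other than monocytes, neutrophils and dendritic cells. The test again called 6 of the 9 genes, where 1296 genes were called in either direction, against 1183 in the main fit. Lyve1 and Cd163 were among the 6, and their calls are again not read as support. Barcodes with neutrophil markers stayed in, so the fit does not address those markers.

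The level of a gene can differ because more macrophages hold it or because each of those cells holds more. To separate the parts, every macrophage was thinned at random to 2000 UMIs, below the lowest total of any barcode, so that no cell was lost. The share of positive macrophages rose for 5 of the 7 genes that could be tested: Stab1, Mrc1, F13a1, Gas6 and Cbr2. Over all 10458 genes in that test 8.49% were called higher. The trend on transcript length also ran over the shares (Spearman correlation 0.504 across 10453 genes, which are not independent). The median log2 change in share was 0.12 over all genes. It ran from -0.096 in the genes with the shortest transcripts to 0.47 in those with the longest, grouped as for the sums. The Mrc1 share change, 0.32, lay below the last value. That trend was not removed from the shares, and its part in these calls was not tested. The UMIs per positive macrophage rose for 1 of 6 tested genes, Mrc1, where only 0.0658% of 9115 genes were called higher. On simulated data the test of level found 34.3% of genes changed 2-fold (9115 genes), and the test of shares found 97.0% (10267 genes). The simulated shares had no spread between mice, whereas the simulated levels had some. These values therefore do not tell which test was the more sensitive here.

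Stab1 was found in 35.6, 30.4 and 37.4% of macrophages with SH045 and in 15.0, 19.5 and 19.9% with Vehicle. The groups did not overlap, and the share rose (log2 change 0.93 ± 0.11, edgeR adjusted p = 0.000364). Without thinning the shares were 45.6, 38.4 and 47.1% against 21.6, 30.5 and 30.0%. In proximal tubule-like barcodes, which should lack the gene, 1.56% held a Stab1 UMI at a median depth of 6673 UMIs, against 34.6% of all macrophages at 3548. A Stab1-positive macrophage held 2.11, 1.86 and 2.20 UMIs with SH045 and 1.38, 1.39 and 1.67 with Vehicle (log2 change 0.47 ± 0.10, edgeR adjusted p = 0.439), and the change was called without SH045 2 or Vehicle 3. These levels also lay apart, with SH045 above Vehicle, as they did for 15.5% of all genes in that test.

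Mrc1 was found in 70.1, 65.3 and 70.1% of macrophages with SH045 and in 52.6, 54.9 and 57.5% with Vehicle (log2 change 0.32 ± 0.06, edgeR adjusted p = 0.00703). The unthinned shares were 81.5, 77.3 and 81.6% against 63.7, 74.9 and 75.9%, with 3.48% in proximal tubule-like barcodes. Of the 5 genes called in thinned cells, Stab1 alone was called when cells were not thinned. Each positive cell held 2.99, 2.57 and 3.01 UMIs with SH045 and 2.02, 2.07 and 2.17 with Vehicle (log2 change 0.45 ± 0.07, edgeR adjusted p = 0.00717). Both parts were therefore called for the mannose receptor. The level call ended in 7 of 12 alternatives, among them each of the fits without SH045 1, SH045 3, Vehicle 1 or Vehicle 2.

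F13a1 was found in 6.14, 5.04 and 6.90% of macrophages with SH045 and in 3.46, 3.30 and 2.69% with Vehicle (edgeR adjusted p = 0.0068). Its positive cells held 1.85, 1.93 and 1.97 UMIs against 1.60, 1.50 and 1.25 (edgeR adjusted p = 0.0993). Gas6 was found in 20.2, 15.6 and 21.5% against 12.5, 14.7 and 12.1% (edgeR adjusted p = 0.0155), with 1.51, 1.55 and 1.56 UMIs per positive cell against 1.40, 1.32 and 1.36 (edgeR adjusted p = 0.303). For both secreted factors all 3 SH045 libraries exceeded all Vehicle libraries in share, as 23.1% of all genes did, and in level per cell. The Gas6 share lost its call without SH045 1, SH045 3 or Vehicle 1. In background classes the unthinned share was 0.156% for F13a1 (proximal tubule-like, against 6.47% of macrophages) and 1.99% for Gas6 (dendritic-like, median depth 5384 UMIs, against 22.5% of macrophages).

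Cbr2 was found in 3.39, 3.27 and 4.18% of macrophages with SH045 and in 2.75, 2.08 and 1.44% with Vehicle (edgeR adjusted p = 0.0337), a call that ended in 8 of 12 alternatives, among them without SH045 1, SH045 3, Vehicle 2 or Vehicle 3. The unthinned Cbr2 share was 4.16% of all macrophages and 0.156% of proximal tubule-like barcodes. Pf4 was found in 36.1, 37.1 and 48.7% against 40.8, 38.8 and 33.4%, and its positive cells held 3.36, 2.90 and 3.50 UMIs against 3.28, 3.13 and 3.15. Both parts of Pf4 overlapped between the groups. Folr2 was found in 0.733, 1.85 and 0.815% against 0.66, 0.49 and 0.576% (edgeR adjusted p = 0.127). Lyve1 and Cd163 had too few positive cells for these tests.

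**Figure D2:**
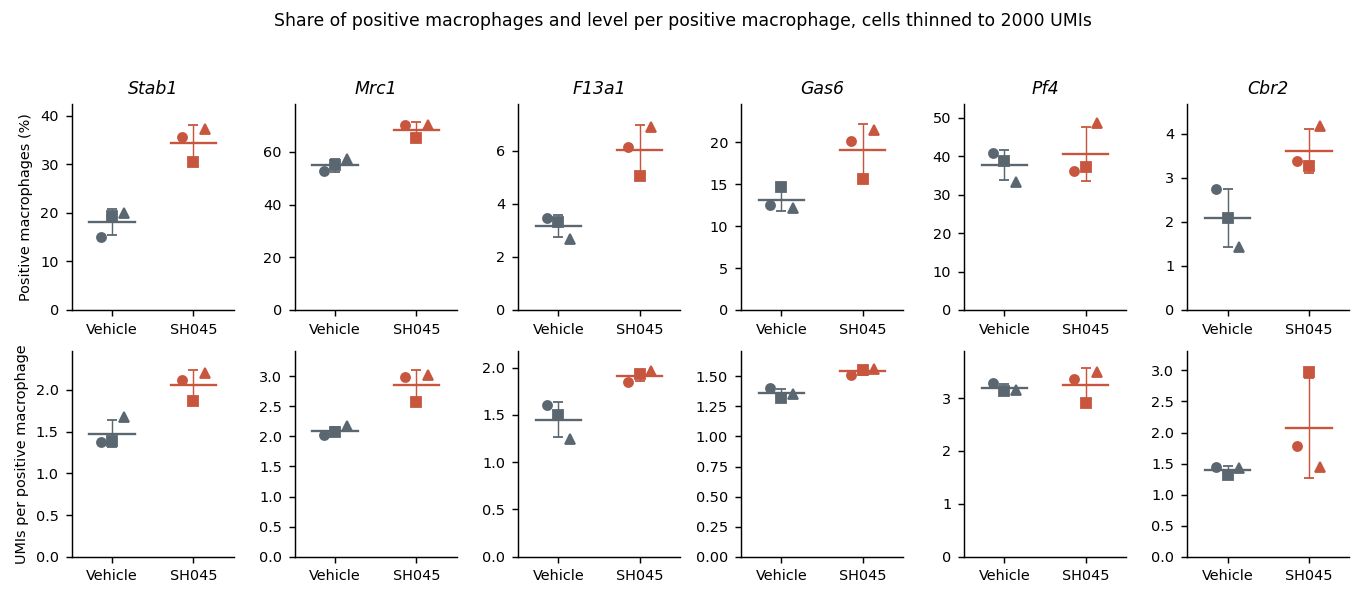
Share of positive macrophages in percent (top row) and UMIs per positive macrophage (bottom row) for 6 genes after thinning each cell to 2000 UMIs; points are libraries, lines means and bars SD (n = 3 per group). Mrc1 positive cells hold 2.57 to 3.01 UMIs with SH045 and 2.02 to 2.17 with Vehicle, while the Pf4 groups overlap in both rows.

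On the log2 scale the 2 parts add up to the difference in UMIs per macrophage. The share gave 0.93 and the level per positive cell 0.48 of the Stab1 difference, so that 66.0% lay in the share. For F13a1 the parts were 0.93 and 0.41 (69.5% in the share), and for Gas6 0.53 and 0.18 (74.4%). For Cd163 they were 1.70 and 0.18, from few positive cells. Vehicle 3 had 4 of them, at 1.75 UMIs per positive cell. Vehicle 2 had 5, at 1 UMI each, the lowest possible. The level part of Cd163 is therefore not read. Of the 7 genes with such a percentage Mrc1 had the smallest part in the share, at 0.32 against 0.45 per positive cell (41.2%). Such a split does not by itself tell more positive cells from a shift of all cells: were UMIs spread at random over macrophages, the observed levels alone would move the share by 1.12 for Stab1, 0.33 for Mrc1, 1.29 for F13a1, 0.63 for Gas6 and 1.87 for Cd163. The measured share moved by less than that value for Stab1, F13a1, Gas6 and Cd163, and by about as much for Mrc1.

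**Figure D3:**
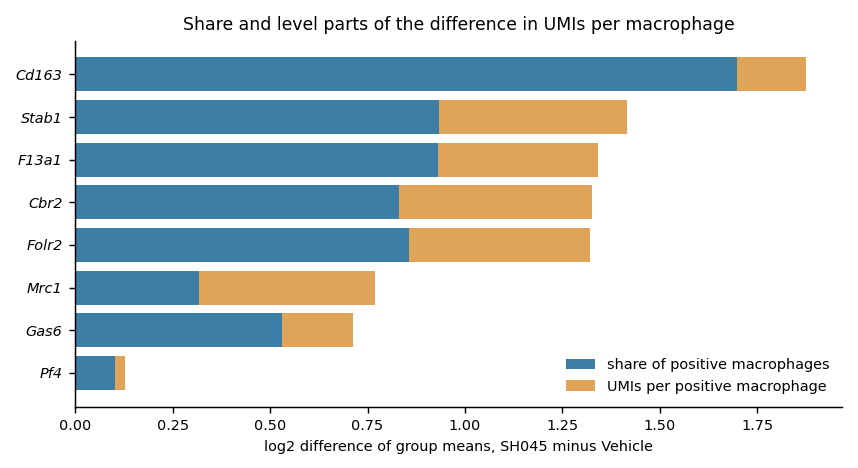
Difference in UMIs per macrophage between the groups (x axis, log2 difference of group means, SH045 minus Vehicle) split into the share of positive macrophages (blue) and UMIs per positive macrophage (orange) for 8 genes. Mrc1 has the larger part per positive cell (0.45 against 0.32) and Stab1 the larger part in the share (0.93 against 0.48).

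The genes were found together in the same cells. Macrophages with at least 4 of the 9 genes made up 10.7 ± 2.33% of cells with SH045 and 4.55 ± 0.26% with Vehicle, and those with 0 of the 9 made up 18.1 ± 2.17% and 27.4 ± 1.11% (SD, n = 3). The libraries did not overlap in either measure (exact permutation p = 0.1, the smallest possible). Both measures depend on the shares of the single genes given above, so they are no separate support. The values that independent detection of the genes would give were not computed. Among Stab1-positive macrophages 28.6% held Gas6, against 11.5% of Stab1-negative ones, and the difference had this direction in 6 of 6 libraries. In the same comparison F13a1 was in 10.1% and 2.38%, and Pf4 in 59.5% and 31.7%, again in 6 of 6 libraries each. All 13 macrophages with a Lyve1 UMI after thinning also held Stab1. Cells had equal depth here, and the co-detection of genes is a description of these cells.

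A few macrophages carried much of the rarer transcripts, above all in SH045 library 2. Only 123 of the 9876 held a UMI of Fcna, Cd209d, Cd209f, Cd209g, Vsig4 or Timd4, which mark subsets of resident macrophages, in numbers of 11, 34 and 11 with SH045 and 22, 17 and 28 with Vehicle. They held 78.4% of the Lyve1, 41.1% of the Folr2, 38.6% of the Cd163, 26.8% of the Cbr2 and 16.2% of the F13a1 UMIs in macrophages, but 3.26% of the Stab1 UMIs. In SH045 library 2 their share reached 86.8% for Cd163, 75.9% for Folr2, 69.0% for Cbr2 and 59.6% for F13a1. Without these cells Stab1, Mrc1 and Gas6 kept their calls. The share of all genes called in that fit is not given here, so the number of calls is not read as a result. F13a1 then had a log2 fold change of 0.89 (edgeR adjusted p = 0.136) and Cd163 of 1.20 (adjusted p = 0.114), and Lyve1 fell below the low-count filter. This choice of cells was made after the data were seen.

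Macrophages were split by whether they held a UMI of 6 genes known from infiltrating cells (Ly6c2, Ccr2, Plac8, Chil3, Vcan and Fn1). A single UMI does not give a cell's origin, and whether the split separates cells by origin was not tested. At least 1 UMI of these was in 64.7 ± 4.98% of macrophages with SH045 and 71.7 ± 3.32% with Vehicle (SD, n = 3, exact permutation p = 0.2). In macrophages without such a UMI, 5 genes rose: Cd163 by 2.91, F13a1 by 1.66, Stab1 by 1.18, Mrc1 by 0.75 and Gas6 by 0.65 on the log2 scale, where 1.93% of 9416 genes were called higher. Cd163 met the low-count filter there only through the SH045 libraries. In macrophages with such a UMI, 4 rose: Stab1 by 1.21, F13a1 by 0.95, Gas6 by 0.63 and Mrc1 by 0.55, where 3.71% of 11398 genes were called higher. Pf4 was at -0.29 without and 0.36 with such a UMI, neither of them called. The difference of the 2 changes was tested over 11059 genes, of which 0.461% were called, and 0 of the 9 genes passed. F13a1 had the lowest adjusted p of the 9 (0.129, difference 0.73 ± 0.20). That none passed does not show that the 2 changes were alike.

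Other cells also held these genes, and barcodes below the gate were given a class when they held at least 3 markers of it. Stab1 was a gene of macrophages (205 CPM, all libraries pooled) and of endothelial-like cells (158 CPM), and macrophages held 92.9% of its UMIs. Macrophages held 89.1% of Mrc1, 95.5% of Pf4, 87.8% of Folr2, 75.5% of F13a1 and 68.9% of Cd163 UMIs, but 47.3% of Cbr2, 45.1% of Lyve1 and 19.4% of Gas6 UMIs. Lyve1 was highest in 4 lymphatic endothelial-like barcodes, 3 of SH045 2 and 1 of SH045 3, which held 39.8% of its UMIs at 3158 CPM. The second main source of F13a1, at 224 CPM and 17.1% of UMIs, was a gate of monocyte markers whose leading genes (Camp, Chil3, Elane, Siglech) mix several lineages, so it is not named as a cell type. Cbr2 was highest in 52 urothelial-like barcodes at 345 CPM, and intercalated-like cells held 22.6% of its UMIs.

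Gas6 was found in many kidney cells. Its mean over the 6 libraries was 386 ± 46.3 CPM in thick ascending limb-like, 380 ± 53.0 in proximal tubule-like, 215 ± 93.6 in endothelial-like and 196 ± 91.9 in fibroblast-like cells, against 108 ± 38.2 in macrophages (SD over both groups). Endothelial-like and fibroblast-like cells lay within each other's spread, as did thick ascending limb-like and proximal tubule-like cells. Proximal tubule-like cells held 29.2% of Gas6 UMIs.

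**Figure D4:**
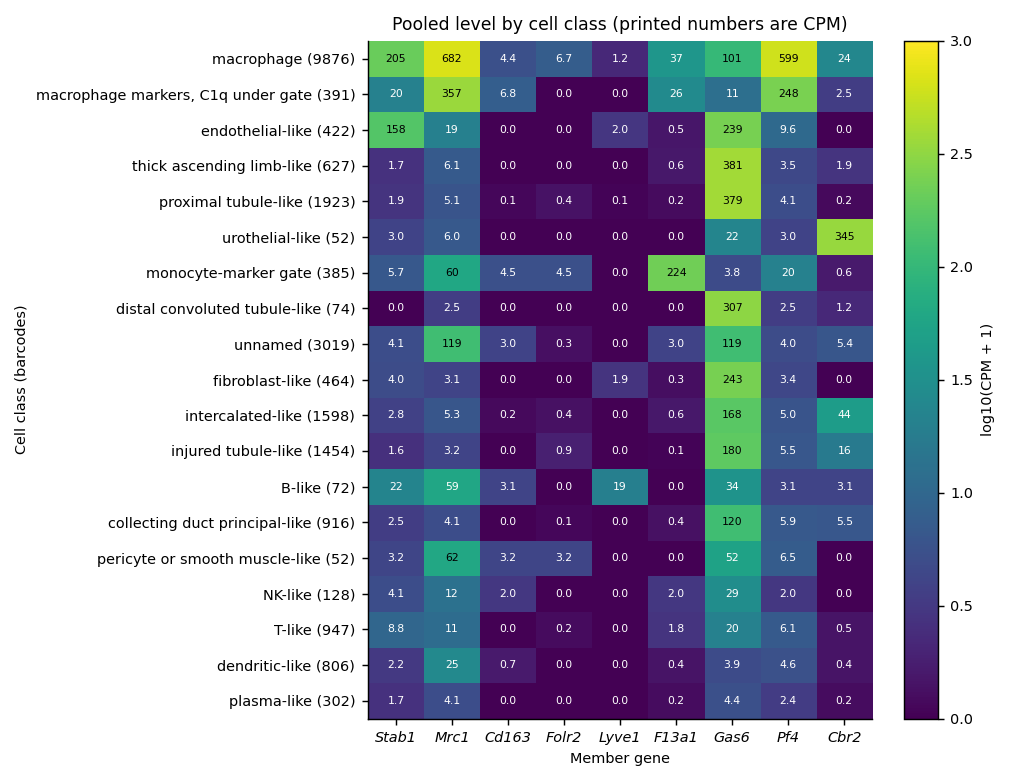
Pooled CPM of the 9 genes (columns) in each cell class with at least 50 barcodes (rows, number of barcodes in parentheses); color is log10(CPM + 1) and the printed numbers are CPM. Stab1 stands out in macrophages (205) and endothelial-like cells (158), F13a1 in the gate of monocyte markers (224), Gas6 across tubule and stromal classes, and Cbr2 in urothelial-like cells (345).

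Outside macrophages, 2 changes of these genes were called over 11 classes, both in intercalated-like cells, the acid-base cells of the collecting duct. Gas6 rose there, at 208, 183 and 228 CPM with SH045 and 114, 119 and 162 with Vehicle (log2 fold change 0.59 ± 0.15, edgeR adjusted p = 0.0436; 0.939% of 9589 genes were called higher). Cbr2 fell there, at 27.7, 32.7 and 34.3 CPM with SH045 and 39.6, 69.2 and 49.7 with Vehicle (log2 fold change -0.85 ± 0.21, edgeR adjusted p = 0.0352; 0.845% were called lower). The groups of both genes lay apart, as did those of 22.3% of the genes tested.

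Stab1 in endothelial-like cells was 203, 189 and 184 CPM with SH045 and 57.1, 80.4 and 125 with Vehicle. The groups did not overlap (SH045 lay above Vehicle for 10.7% of genes there), but the change of 1.10 ± 0.27 missed the limit (edgeR adjusted p = 0.0542). Its difference from the change in macrophages was 0.11 ± 0.26 (adjusted p = 0.993), which does not show that the changes were alike. Gas6 in fibroblast-like cells was 202, 320 and 292 CPM with SH045 and 122, 110 and 127 with Vehicle, with a change of 1.25 ± 0.25 (edgeR adjusted p = 0.111; SH045 lay above Vehicle for 6.64% of genes there). Gas6 in proximal tubule-like cells was 470, 354 and 387 CPM against 313, 397 and 359, which overlapped (log2 change 0.05 ± 0.17).

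Whether a change in macrophages differed from the change in another class was tested for 21 pairs of gene and class, with the library as a block. Of the 21, 4 passed an adjusted p of 0.05 over all genes of the fit, each with the higher log2 change in macrophages. Mrc1 rose in macrophages but was 259, 321 and 347 CPM with SH045 and 339, 393 and 379 with Vehicle in barcodes with macrophage markers and under 10 C1q UMIs, a difference of 1.16 ± 0.18 (edgeR adjusted p = 0.000227; 0.466% of all genes passed). F13a1 was 295, 69.9 and 191 CPM against 424, 167 and 156 in the gate of monocyte markers, a difference of 1.70 ± 0.32 (adjusted p = 8.76e-05; 0.291% passed; 0.0668 without Vehicle 1). Gas6 was 435, 361 and 335 CPM against 380, 356 and 450 in thick ascending limb-like cells, a difference of 0.93 ± 0.18 (adjusted p = 0.00509; 0.245% passed; 0.0799 without Vehicle 3). For Cbr2 the difference from intercalated-like cells was 2.32 ± 0.39 (adjusted p = 0.0443; 0.522% passed), which did not pass without SH045 1 or Vehicle 3. The log2 change was lower in macrophages for Stab1 and Pf4 against the barcodes with few C1q UMIs, and for Gas6 against fibroblast-like cells. None of these passed, at -1.03 ± 0.39 (edgeR adjusted p = 0.381), -4.68 ± 0.87 (0.264) and -0.65 ± 0.29 (0.477). Barcodes with few C1q UMIs numbered 33, 49 and 27 with SH045 and 85, 75 and 122 with Vehicle. These tests were added after the values were seen.

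**Figure D5:**
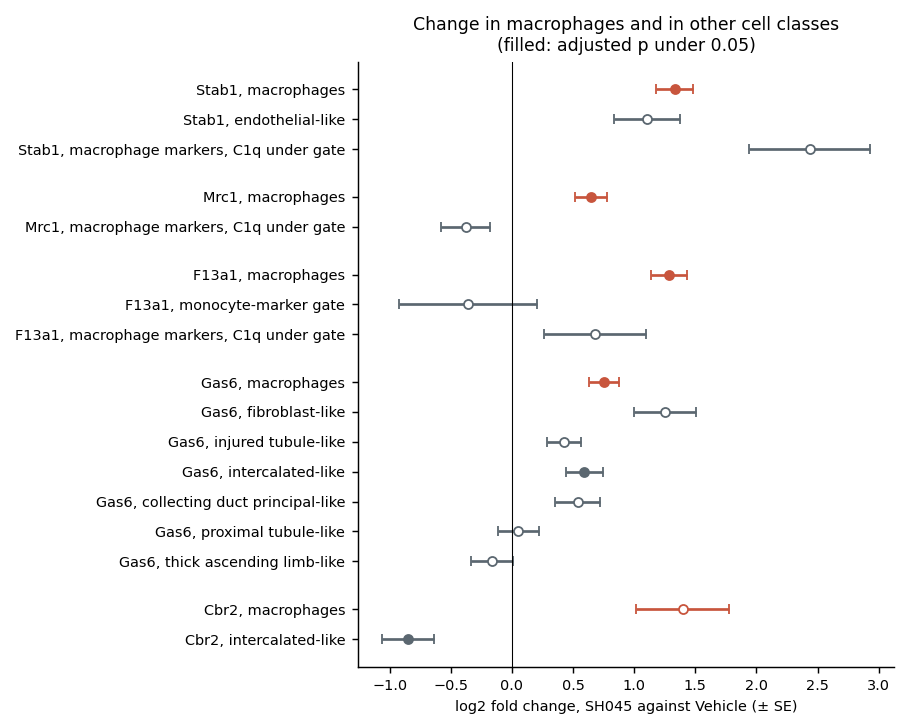
Log2 fold change of SH045 against Vehicle (x axis, bars are SE) for 5 genes in macrophages (red) and in other cell classes (grey); filled points have an edgeR adjusted p under 0.05. Gas6 points of fibroblast-like, injured tubule-like and intercalated-like cells lie to the right of 0, those of proximal tubule-like and thick ascending limb-like cells near 0, and Cbr2 lies on opposite sides of 0 in macrophages and intercalated-like cells.

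In sums over all kept barcodes, where the number of cells of a type and their RNA per cell cannot be told apart, 1 of the 9 genes passed the test, where 2.95% of 16532 genes were called higher. This was Lyve1 (112 UMIs with SH045 and 1 with Vehicle, edgeR adjusted p = 0.0072), which entered the test only through the SH045 libraries, so its call is not read as support. Lymphatic endothelial markers summed to 6.19 to 11.4 CPM with SH045 and 2.70 to 3.32 with Vehicle over the same barcodes, and their part in the Lyve1 result was not tested. Stab1 was 85.6, 66.0 and 149 CPM with SH045 and 34.4, 32.6 and 55.5 with Vehicle, without overlap, as 34.8% of genes there (edgeR adjusted p = 0.114). The share of a gene's UMIs that came from macrophages was 94.0 ± 2.74% with SH045 and 82.9 ± 3.66% with Vehicle for Mrc1, and 86.8 ± 6.79% and 40.0 ± 8.27% for Cd163. For Pf4 it was lower with SH045, at 92.3 ± 3.88% against 97.6 ± 0.411% (SD, n = 3, without overlap for these 3 genes, exact permutation p = 0.1, the smallest possible). For Stab1, F13a1, Gas6, Folr2 and Cbr2 the groups overlapped. How many of all genes lack overlap in this measure was not computed.

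Other genes of the same biology were taken from lists. Of 19 genes of apoptotic cell uptake, 12 could be tested in macrophage sums, 2 rose and 1 fell, with a median log2 fold change of 0.23, against 0.01 for all genes, of which 5.08% were called higher and 4.55% lower. Abca1, a cholesterol exporter switched on after uptake, rose from 50.5, 54.9 and 65.9 CPM with Vehicle to 162, 120.0 and 134 with SH045 (log2 fold change 1.11, edgeR adjusted p = 0.00111). Mertk, a receptor of Gas6, rose from 16.3, 15.9 and 18.7 to 37.8, 29.3 and 33.3 CPM (0.81, adjusted p = 0.009). Axl, another Gas6 receptor, named after its values were seen, was 327, 259 and 267 CPM with SH045 and 202, 210.5 and 228 with Vehicle (0.24, adjusted p = 0.198). Lrp1, a receptor for many ligands, fell (-0.51, adjusted p = 0.032).

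Of 19 other scavenger and lectin receptors, 11 were tested, 1 rose and 1 fell, with a median of -0.21. These counts are near the shares over all genes (5.08% higher and 4.55% lower) and are no result about the list. Siglec1 (CD169), a sialic acid receptor of resident macrophages, rose from 6.63, 8.84 and 11.8 CPM to 25.4, 26.9 and 27.4 (log2 fold change 1.37, edgeR adjusted p = 0.00543). Mgl2, a galactose-binding lectin, fell (-0.76, adjusted p = 0.0126).

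All 22 other resident and perivascular macrophage genes were tested, and 8 rose and 1 fell, with a median of 0.34. The 5 with the smallest p among those that rose were Itga9, an integrin chain (log2 fold change 0.78), Hpgd, which breaks down prostaglandins (0.75), Ltc4s, which makes leukotriene C4 (0.79), Nrp1, a co-receptor for growth factors (0.73), and Wwp1, a ubiquitin ligase (0.65). Cd72 was the one that fell (-0.54, edgeR adjusted p = 0.0297). With the length trend removed 5 of the 22 were called higher, where 1.42% of all genes were.

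Of 15 genes of alternative activation 0 rose and 1 fell, Pdcd1lg2, an inhibitory ligand (-1.80, edgeR adjusted p = 0.0227), with a median of -0.32. Pdcd1lg2 met the low-count filter only through the Vehicle libraries. That count is near the 4.55% of all genes that were called lower. Of 15 genes of infiltrating monocyte-derived macrophages 0 rose and 3 fell, Lgals3 (-1.01, adjusted p = 0.0113), S100a4 (-0.78, adjusted p = 0.0134) and S100a6 (-0.95, adjusted p = 0.0307), with a median of -0.39. S100a4 and S100a6 lost the call with the length trend removed, and S100a6 was at 0.23 in macrophages without an infiltrating-gene UMI (adjusted p = 0.715). Of the identity markers, Csf1r, the growth factor receptor of macrophages, rose (0.52, adjusted p = 0.0279). Of the genes named from the 5 lists above, Abca1 and Siglec1 were called in all 21 alternatives (the one with SH045 2 alone included, which has a single SH045 sample), and each of the others lost its call in at least 1. Without Vehicle 2 the calls of Mertk, Lrp1, Mgl2, Nrp1, Cd72, Pdcd1lg2, Lgals3, S100a4, S100a6, Selenop and Maf ended, and without Vehicle 1 the same ones except Mertk. Leaving out another library also ended the calls of Lrp1 (SH045 1, SH045 3 or Vehicle 3), Cd72 (SH045 1, 2 or 3), Pdcd1lg2 (SH045 1 or 3), S100a6 (SH045 1 or Vehicle 3) and Maf (SH045 3 or Vehicle 3).

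The genes whose counts went most with the sum of the 9 across macrophages were Selenop, a selenium carrier (mean Pearson correlation 0.446 over 6 libraries, among 4310 genes), Apoe (0.422), Maf, the transcription factor (0.397), and Fcrls (0.386). Ctsb, Wwp1, Lgmn, Itm2b, Trf and Igfbp4 followed, down to 0.287. Selenop (0.407 to 0.477) and Apoe (0.39 to 0.459) kept these values in all 6 libraries. The cells of a library share its preparation, and all were thinned to 1 depth. Between the groups Apoe itself was not called (-0.05, edgeR adjusted p = 0.851), whereas Selenop (0.58, adjusted p = 0.0185) and Maf (0.57, adjusted p = 0.0297) rose.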

How the data were processed

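Single-cell libraries were made on a Singleron GEXSCOPE microfluidic chip with barcoded beads, aimed at 6000 cells each, per the labels' protocols. The authors deposited raw UMI counts per gene and barcode; the build was mm10, per the submitters' processing notes, and the aligner and annotation are not given in the sources used here. Barcodes with at least 200 genes and at most 50% mitochondrial UMIs were kept, 23578 of 25978. Doublets were not removed; leaving out the 5% of barcodes with the highest Scrublet scores (scanpy 1.11.5) was an alternative. Counts were summed per library over macrophages, all kept barcodes or marker classes, and tested with edgeR 4.0.16 (R 4.3.3; TMM, low-count filter, robust quasi-likelihood, Benjamini-Hochberg over all genes tested). Shares used the number of positive cells with the number of macrophages as library size, and levels used UMIs of positive cells with their number as offset, in genes with at least 10 positive cells in each library. Cells were thinned to 2000 UMIs. Single values were compared with two-sided exact permutation tests. The tests were checked on simulated counts: in macrophage sums 67.2% of genes changed 2-fold were found (12074 genes) and 3.94% of calls were false. The simulated sums had a single fixed dispersion and no trend on transcript length, which the real sums had. These rates therefore do not carry over to the calls here. DESeq2 1.42.0, other gates, filters and scalings, a transcript-length trend (natural spline, 5 degrees of freedom) and leaving out each library were alternatives. Members and lists were chosen with earlier results of these data known. Beside the 9 genes, the text names up to 5 called genes per list and direction with the smallest p, and the 10 genes most correlated with the summed members. Replicate numbers did not pair the samples. Promoters came from RefSeq (GRCm38.p6), where 8 of the 9 genes matched. Intervals cover counting error only.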

Additional observations from a re-analysis of the deposited data

Results flagged for a closer look

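For 4 pairs of gene and cell class, the change with SH045 in macrophages differed from the change in another class, by a test of the difference itself (edgeR, adjusted over all genes of each fit). The 21 pairs tested were set after the values had been seen. For Mrc1 the log2 change in macrophages exceeded that in barcodes with macrophage markers and few C1q UMIs by 1.16, and this held in 6 of 6 fits that left out 1 library (0.95 to 1.40). For F13a1 it exceeded that in the gate of monocyte markers by 1.70 (1.24 to 2.32, called in 5 of 6 such fits). For Gas6 it exceeded that in thick ascending limb-like cells by 0.93 (0.78 to 1.06, called in 5 of 6). For Cbr2 it exceeded that in intercalated-like cells by 2.32 (1.87 to 2.65, called in 4 of 6).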

How the results depend on the processing

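Stab1 in macrophage sums was called in all 21 alternatives, 1 of which has a single SH045 library. Of 1183 genes called there, the count was 1868 with no low-count filter, 1874 with a gate of 5 C1q UMIs, 356 without an infiltrating-gene UMI, 418 with the length trend removed, 29 for SH045 2 alone against Vehicle, and 97 (without Vehicle 2) to 1353 (without SH045 2) with 1 library left out. Of the 9 genes, 6 were called, 3 without the Fcna and Cd209 macrophages and 4 to 7 with 1 library left out. DESeq2 gave no adjusted p for Cd163, Folr2 and Lyve1. Shares of positive macrophages gave 5 calls, 1 in cells not thinned, 3 at 3000 UMIs and 3 to 6 with 1 library left out. Levels per positive macrophage gave 1 call, 0 in cells not thinned, at 3000 UMIs or with positive cells from 2 UMIs, and 0 to 2 with 1 library left out. Whole-library sums gave 1 call, and 2 with DESeq2. Other classes gave 2 calls, and 1 to 3 with 1 library left out. The replicate numbers did not pair the samples (correlations -0.05, 0.04 and 0.14 for same-numbered libraries), and the replicate block gave 717 genes in macrophage sums, 3 of the 9 genes in shares, 2 in levels, 2 in whole-library sums and 5 in other classes. Directions turned for values that were not called: Pf4 in macrophage sums was -0.292 without an infiltrating-gene UMI and -0.0246 for SH045 2 alone, and in levels -0.0456 with positive cells from 2 UMIs. With 1 library left out Pf4 ranged from -0.0381 to 0.195 in shares and from -0.0291 to 0.107 in levels, both lowest without SH045 3. Pf4 in whole-library sums was 0.207 with the length trend removed, 0.0185 without shared barcodes, and -0.516 to 0.146 with 1 library left out. Mrc1 there was -0.104 with the length trend removed and -0.243 to 0.338 with 1 library left out, lowest without SH045 3. S100a6, called in macrophage sums, was 0.228 without an infiltrating-gene UMI. The difference in macrophage share was -4.84 percentage points, and -10.6 to -1.12 with 1 library left out. The causes were not tested.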

Other observations

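Barcodes with macrophage markers and fewer than 10 C1q UMIs held Pf4 at 1375, 689 and 770 CPM with SH045 and 9.58, 70.4 and 8.42 CPM with Vehicle, without overlap (log2 fold change 4.88, edgeR adjusted p = 0.265). SH045 lay above Vehicle for 12.2% of the 5087 genes tested there. In each SH045 library 3 cells held 94.1 to 95.1% of these Pf4 UMIs. The 10 cells with at least 20 Pf4 UMIs also held Mmp9 at 3950 CPM and Arg1 at 2361 CPM. Of genes of megakaryocytes and platelets, they held Ppbp at 1059 CPM (74 UMIs in 2 of the 10 cells, against 6.90 CPM in macrophages), and Itga2b, Gp9, Gp1bb and Treml1 at 0 UMIs. The part of platelets in these values was not tested. These cells were chosen after their values were seen.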
